A study of Homo sapiens and Mus musculus with 10 samples.

Results

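Blood lines were compared with adherent lines in chromatin accessibility, by asking which sites carried an ATAC-seq peak in all 4 libraries of GM12878 and K562 and in none of the 4 libraries of HEK293T and HFF1, or the reverse. Overlapping autosomal peaks of the 8 libraries merged into 236601 regions. Of these, 2794 met the rule for the blood side (1.18% of all regions) and are called blood-only, and 1683 met it for the adherent side (0.711%) and are called adherent-only. Together they made up 4477 regions, or 1.89%. The promoter of a protein-coding gene was taken as 1 kb on either side of any of its GENCODE v44 start sites. Of 19111 autosomal genes, 115 had a blood-only promoter (0.602%) and 222 an adherent-only promoter (1.16%), which is 337 genes or 1.76%.

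ATAC-seq finds open chromatin by the insertion of adapters with the Tn5 transposase. The study measured it in 4 human lines and 1 mouse line with 2 replicates each, with no treatment, and the mouse libraries were left out here. GM12878 is a B-lymphoblastoid line transformed with Epstein-Barr virus and K562 is an erythroleukaemia line, and both grow in suspension. HEK293T is an embryonic kidney line with the SV40 large T antigen, HFF1 is a foreskin fibroblast line, and both grow attached to plastic. Per the labels, GM12878 was kept in RPMI-1640 with 15% fetal bovine serum and K562, there spelled K526, in the same medium with 10% serum. HEK293T and HFF1 were both kept in DMEM with 10% serum. Medium and mode of growth therefore went with the side in all 4 lines and cannot be told apart from it. Each line stands for itself, so a side rests on 2 lines, and nothing in the labels says whether replicates were separate cultures. Regrouping 4 lines as 2 against 2 gives 3 arrangements and no permutation p below 0.333, so no test was made and all counts are descriptions.

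Blood cells and attached cells use different regulators of gene expression. RUNX, GATA and ETS-family factors, among them PU.1, direct blood cell identity, while TEAD factors with the coactivators YAP and TAZ (the Hippo pathway) respond to attachment and spreading. AP-1 is a widely used stimulus-responsive factor, and proteins that bind the E-box with the letters CACCTG include the repressors ZEB and SNAI and several bHLH activators. Promoters rich in CpG tend to be open in many cell types, whereas CpG-poor promoters are more often open in a few.

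The sequences below show regions and promoters of both sides that hold these motifs, as a view of what the counts further on refer to. Capitals mark the motifs, on either strand, that are named before each sequence. The first 5 run from 50 bp before to 50 bp after the median summit (GRCh38, plus strand) of distal regions, meaning over 1 kb from a protein-coding start site. They come from the 6 distal regions per side with the highest value of the lowest deposited fold. The first lies at chr5:111530378-111530478, between genes, 17592 bp from the nearest start site, that of STARD4, was blood-only and held AP-1 and PU.1.
STARD4 region: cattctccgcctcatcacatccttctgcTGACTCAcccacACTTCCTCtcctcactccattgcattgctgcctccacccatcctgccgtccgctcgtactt
The second lies at chr6:20846758-20846858 in an intron of CDKAL1, was blood-only and held GATA and PU.1.
CDKAL1 region: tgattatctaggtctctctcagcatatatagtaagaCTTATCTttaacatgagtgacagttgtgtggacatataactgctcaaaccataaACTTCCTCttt
The third lies at chr5:167699597-167699697 in an intron of the teneurin gene TENM2, was adherent-only and held TEAD.
TENM2 region: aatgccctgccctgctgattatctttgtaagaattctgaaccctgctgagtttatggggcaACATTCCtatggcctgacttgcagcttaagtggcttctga
The fourth lies at chr12:20212853-20212953, between genes, 155375 bp from the start of the phosphodiesterase gene PDE3A, was adherent-only and held AP-1.
PDE3A region: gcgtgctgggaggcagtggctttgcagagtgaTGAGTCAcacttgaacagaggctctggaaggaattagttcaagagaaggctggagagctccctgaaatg
The fifth lies at chr2:6353051-6353151, between genes, 508634 bp from the start of CMPK2, was adherent-only and held the E-box and EBF motifs.
CMPK2 region: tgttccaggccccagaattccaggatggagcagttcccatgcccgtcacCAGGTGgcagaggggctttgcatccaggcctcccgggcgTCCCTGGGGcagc
The next 3 are the 250 bases before a RefSeq start (GRCh38.p14, strand of the gene) that lay under a peak in all 4 libraries of its side and none of the other. They belong to SAMSN1, a blood cell adaptor (chr21:14546316-14546565, minus strand), HEMGN, a nuclear protein of blood precursors (chr9:97938173-97938422, minus strand), and GJA1, which encodes the gap junction protein connexin 43 (chr6:121435396-121435645, plus strand). The capitals are PU.1 and GATA in SAMSN1, the E-box and RUNX in HEMGN and AP-1 in GJA1.
SAMSN1 promoter: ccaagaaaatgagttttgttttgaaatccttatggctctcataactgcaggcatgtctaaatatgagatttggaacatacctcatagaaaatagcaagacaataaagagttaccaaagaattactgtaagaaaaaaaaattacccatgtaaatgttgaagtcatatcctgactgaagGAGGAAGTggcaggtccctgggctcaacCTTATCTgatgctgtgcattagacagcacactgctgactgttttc
HEMGN promoter: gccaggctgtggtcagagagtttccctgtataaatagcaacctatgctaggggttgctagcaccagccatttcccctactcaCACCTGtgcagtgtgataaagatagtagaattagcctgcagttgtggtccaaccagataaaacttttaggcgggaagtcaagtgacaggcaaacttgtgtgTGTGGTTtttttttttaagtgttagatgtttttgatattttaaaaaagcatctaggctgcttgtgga
GJA1 promoter: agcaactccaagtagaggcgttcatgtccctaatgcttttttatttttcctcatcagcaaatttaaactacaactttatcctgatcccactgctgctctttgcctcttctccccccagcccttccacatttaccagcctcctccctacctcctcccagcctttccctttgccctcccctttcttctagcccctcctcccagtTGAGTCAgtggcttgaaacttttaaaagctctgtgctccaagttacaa
Of the 12 distal regions chosen this way, the sequence of 10 was searched, and 5 of these held none of the 16 motifs.

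The number of regions shared by a side was not high beside other pairs of lines. A peak in all 4 libraries of GM12878 and HFF1 and none of the other 4 was found at 6273 regions, and of K562 and HFF1 at 2990, against 2794 for the blood pair and 1683 for the adherent pair. The pairs K562 with HEK293T and GM12878 with HEK293T had 1383 and 1346. In promoters the adherent pair, with 222 genes, came after GM12878 with HFF1 (258), and the blood pair, with 115, came after K562 with HFF1 (146). The 3 pairs that hold HFF1 thus had the most promoters, and the 2 pairs of HEK293T with a blood line had 32 and 27.

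**Figure D1:**
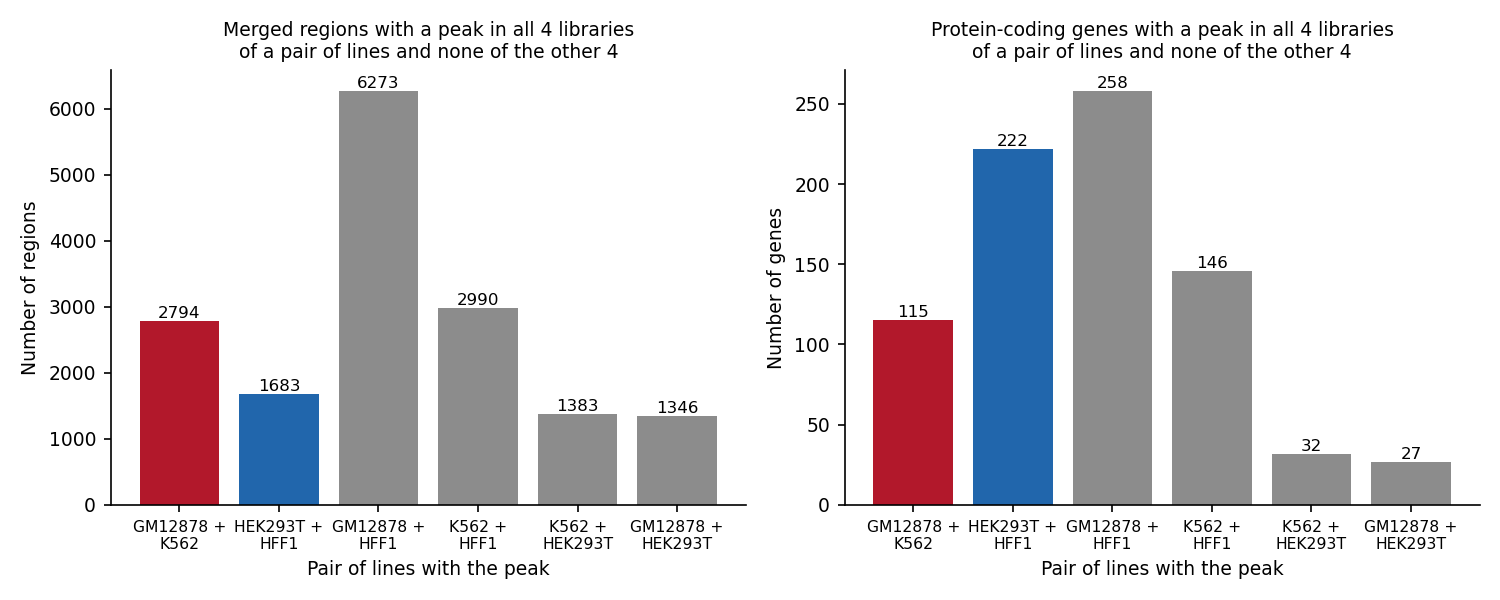
Number of merged regions (left) and protein-coding genes (right) with a peak in all 4 libraries of a pair of lines and none of the other 4, for each of the 6 pairs. The blood pair (red) had 2794 regions and 115 genes and the adherent pair (blue) 1683 regions and 222 genes, and the pair GM12878 with HFF1 exceeded both in each panel.

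Library depth went with the line. The background level recovered from the peak values, which is proportional to depth, was lowest in HEK293T, at 0.465 ± 0.000805 (SD, n = 2). GM12878 had 1.72 ± 0.0143, K562 had 2.09 ± 0.170 and HFF1 had 2.25 ± 0.263. HEK293T had 50332.5 ± 211 autosomal peaks and HFF1 121124 ± 4837, with GM12878 (99639 ± 1403) and K562 (72714.5 ± 5001) between them. With the 40000 best peaks of each library in place of the full lists, the sides had 1054 blood-only and 1006 adherent-only regions, so the excess of blood-only regions was small at equal list length. At the same setting there were 90 blood-only and 249 adherent-only promoters. The part of HEK293T depth in these counts was not tested further.

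Members just inside and just outside the rule differed by a single library. A further 2253 regions had a peak in 3 of the 4 blood libraries and no adherent one, and 1217 had all 4 blood libraries and 1 adherent library. For the adherent side the numbers were 1529 and 498. The library that was missing was most often K562 replicate 2 on the blood side (954 regions), and on the adherent side HEK293T replicate 2 (643) or HEK293T replicate 1 (557). In promoters, 66 genes had 3 of 4 blood libraries alone and 65 had 4 with 1 adherent library, against 90 and 117 genes for the adherent side.

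Members were of middling height within their own lists. The deposited fold is the summit of a peak over the local background of its library, and it ranks peaks within a list only. The median fold of blood-only regions was 7.09 and 7.16 in the GM12878 replicates and 5.92 and 5.88 in the K562 replicates, at median percentiles of 48.2, 48.8, 45.4 and 41.7 of those lists. The median fold of adherent-only regions was 7.71 and 7.61 in HEK293T and 7.05 and 6.98 in HFF1, at percentiles 44.3, 43.7, 57.0 and 54.6. Regions open in all 8 libraries lay higher, at median percentiles from 70.4 to 79.1.

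Leukocyte genes were more often open on the blood side, mostly without meeting the strict rule. This list and the other gene lists were chosen with earlier results of these data known. Of 45 genes for leukocyte surface, signalling and cytoskeleton, 4 had a blood-only promoter (8.89%, beside 0.602% of all genes) and 0 an adherent-only one. A peak was present in more blood than adherent libraries at 24 of the 45 and in more adherent than blood libraries at 0, beside 10.9% and 11.5% of all 19111 genes, and 16 were open in all 8 libraries. The 4 were NCKAP1L, CD52, SPN and PTPN7. NCKAP1L encodes the blood cell subunit of the WAVE actin complex, and its folds were 16.8 and 17.1 in GM12878 and 13.2 and 13.1 in K562. CD52, a small surface glycoprotein of lymphocytes, had folds of 5.31 and 6.20 in GM12878 and 5.81 and 5.85 in K562. SPN, the surface sialoglycoprotein CD43, had 4.07, 4.42, 5.94 and 5.61 in the same order. PTPN7, a haematopoietic tyrosine phosphatase, had 5.43, 6.01, 3.73 and 3.45, but from peaks at different places in the 2 lines. Its GM12878 peaks overlapped chr1:202160603-202160852, where K562 had no peak. Its K562 peaks overlapped chr1:202159455-202159704, where GM12878 had none, so the lines did not share an open site there. None of the 4 had a peak in any adherent library, and the windows of CD52 and SPN overlap those of other genes.

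Many leukocyte genes that missed the rule did so because 1 line had the other state. HCLS1, CD53, ARHGAP15 and PTPN6 had peaks in all 4 blood libraries and in 1 adherent library. The promoters of RAC2, ITGAL, FERMT3, DOCK2, LAPTM5 and ARHGDIB were open in both blood lines and also in both HFF1 libraries, and those of VAV1 and SYK also in both HEK293T libraries. CD48, SELPLG, ARHGAP30 and INPP5D were open in GM12878 alone. PTPRC, the pan-leukocyte phosphatase CD45, had peaks in both GM12878 libraries (8.36 and 9.89) and both HFF1 libraries (6.70 and 6.53), and in no K562 or HEK293T library, so its promoter went against the sides.

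Among 37 transcription regulators of blood cells, the single blood-only promoter (2.70%, beside 0.602% of all genes) was that of SPI1, which encodes PU.1. Its folds were 7.76 and 7.85 in GM12878 and 7.21 and 7.49 in K562. Of the 37, 0 were adherent-only, 22 were open in all 8 libraries, and 8 against 3 were open in more blood or more adherent libraries. TAL1, a bHLH factor of erythroid cells, was open in K562 alone, and SPIB and IRF4 in GM12878 and HFF1. ERG had peaks in 3 adherent libraries and no blood library, and FLI1 and IRF8 were open in GM12878 and both adherent lines, FLI1 with a further peak in K562 replicate 2. These 3 were the regulators open in more adherent than blood libraries.

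Lineage markers showed what the 2 blood lines did not share. Their lists were chosen with earlier results of these data known, so they are no independent check of the labels. Of 14 B-cell markers, 0 were blood-only, and 7 against 0 were open in more blood libraries, and CD79A, CD79B, MS4A1 and BLK were open in GM12878 alone. Of 16 erythroid markers, 1 was blood-only (6.25%, beside 0.602% of all genes), 9 were open in more blood libraries, with GYPE, HBE1 and TAL1 open in K562 alone, and 2 (HBA1 and AHSP) were open in more adherent libraries. The blood-only erythroid gene was HEMGN, with folds of 5.57 and 6.90 in GM12878 and 6.48 and 6.72 in K562. KLF1, SLC4A1 and HBG1 had no promoter peak in any library, so these erythroid genes did not mark K562 here. HBG1 and HBA1 have near-identical neighbours, and GYPB and GYPE resemble each other, so their peaks are uncertain.

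Adherent-only promoters were found in the matrix and junction lists, with single genes in the Hippo, receptor and developmental lists. Of 39 genes for extracellular matrix and basement membrane, 3 were adherent-only (7.69%, beside 1.16% of all genes) and 19 against 3 were open in more adherent libraries. Of 35 genes for cell junctions and polarity, 3 were adherent-only (8.57%) and 12 against 2 leaned to the adherent side. Of 23 Hippo pathway genes, 1 was adherent-only (4.35%) and 8 against 1 leaned that way. Of 45 developmental transcription factors, 1 was adherent-only (2.22%) and 21 against 5 leaned that way. The receptor list had 1 adherent-only gene of 34 (2.94%) and did not lean, with 5 against 5 open in more adherent or more blood libraries. Beside 1.16% of all genes, a single adherent-only gene is not a result about any of these 3 lists. These 5 lists and the leukocyte list had 0 members that were called for the opposite side. At equal list length, 16 genes of the matrix, junction and Hippo lists were adherent-only in place of 7.

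LAMA1, a laminin chain of basement membranes, had folds of 8.40 and 9.43 in HEK293T and 6.68 and 5.40 in HFF1. FBLN1, a matrix glycoprotein, had 5.35, 6.13, 5.38 and 6.11 in the same order, and FSTL1, a secreted glycoprotein, had 6.68, 6.18, 5.49 and 5.28. Neither blood line had a peak at these 3 genes. Of the junction genes, CDH2, which encodes N-cadherin, had 7.39, 7.46, 7.28 and 7.19. CDH6, another classical cadherin, had 10.1, 10.0, 8.53 and 7.22. GJA1 had 6.96, 7.05, 7.59 and 8.14. ANKRD1, a common YAP target, had 9.49, 11.1, 7.28 and 7.42. CCN2, the best known such target, had 4 adherent libraries and 1 blood library and so missed the rule by that library.

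EGFR, the epidermal growth factor receptor, was the single adherent-only promoter among 34 growth factor, Wnt and Notch receptors, 24 of which were open in all 8 libraries. Its folds were 8.78 and 8.52 in HEK293T and 9.02 and 9.19 in HFF1. HOXA5 was the single one among the developmental factors, with 5.45, 5.60, 6.55 and 6.58. PAX2 and LHX1, which act in kidney development, were open in HEK293T alone, and TWIST2, FOXC2 and FOXF2 had peaks in HFF1 but in no blood library. Integrins and focal adhesion genes did not separate the sides: 37 of 42 were open in all 8 libraries, 0 were blood-only and 0 adherent-only. PARVA, which encodes parvin alpha of focal adhesions, came closest with 4 adherent libraries and 1 blood library. The 10 reference genes were open in all 8 libraries.

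**Figure D2:**
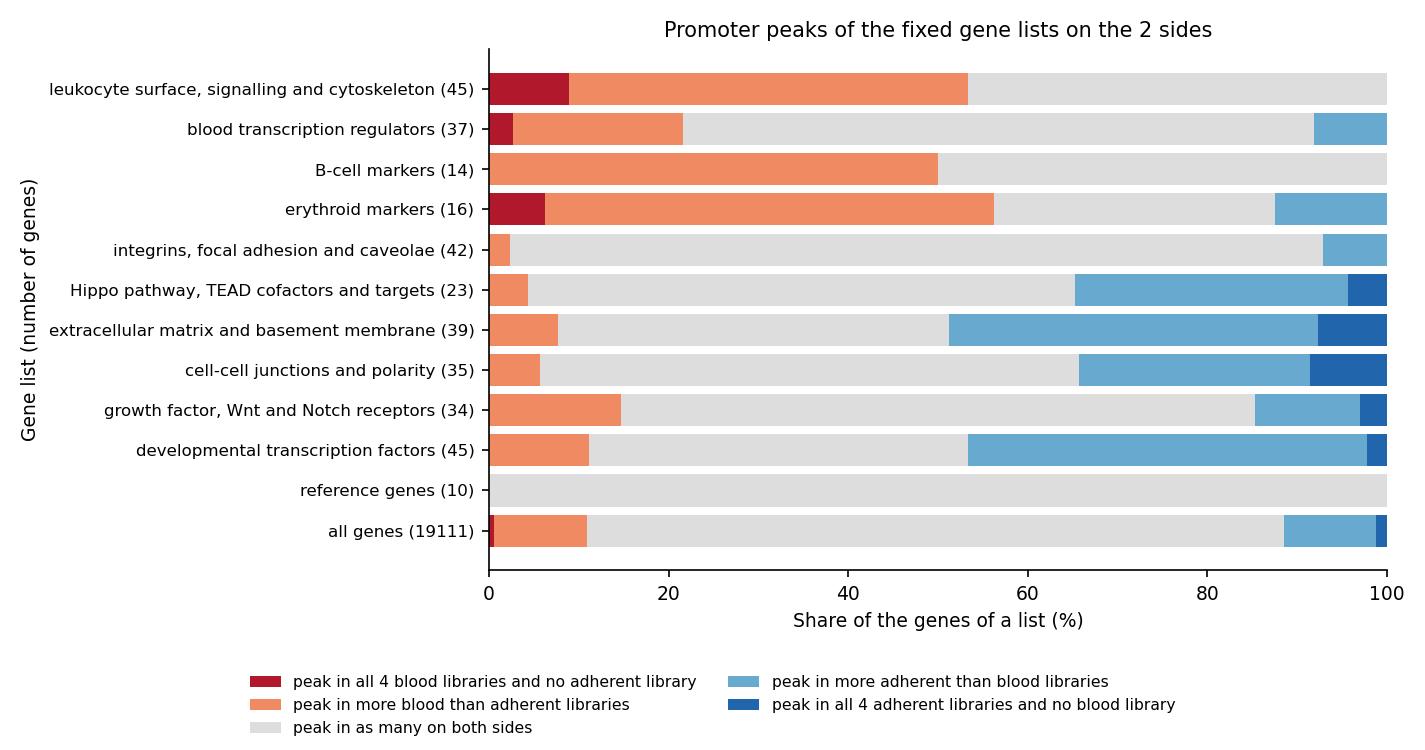
Share of the genes of each list (horizontal axis, %) by the side on which the promoter had peaks, with the number of genes in parentheses and all genes at the bottom. Dark colours are promoters that met the strict rule, light colours those with more libraries on a side, and 53.3% of leukocyte genes leaned to blood while 48.7% of matrix genes leaned to the adherent lines.

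The highest blood-only promoters held few list genes. Ranked by the lowest fold over the 4 libraries, and leaving out genes whose windows overlap another gene, NCKAP1L led, followed by CGB2, CACNG3, DTX2, TCAF2, TCL1A, LMAN1L, ARL11, FAM90A1, ZNG1E, SAMSN1 and CASS4. TCL1A, a coactivator of AKT known from lymphoid cells, had folds of 12.3 and 12.2 in GM12878 and 8.54 and 8.09 in K562. SAMSN1 had 11.4, 11.8, 7.39 and 7.36, and CASS4, an adaptor of the CAS family, had 8.44, 7.32, 8.28 and 8.13. CACNG3, a subunit that accompanies glutamate receptors in neurons, had 11.6, 10.6, 12.3 and 10.3. CGB2, DTX2, TCAF2, FAM90A1 and ZNG1E have near-identical copies elsewhere in the genome, and how reads with several matches were placed is not given in the sources used here, so these 5 are uncertain.

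The highest adherent-only promoters were C8orf48, CABCOCO1, MC4R, GLRB, RHOJ, GAP43, ZNF471, VIT, TLE1, IQCM, CNTLN and ZNF682. RHOJ, a small GTPase of endothelial and mesenchymal cells, had folds of 12.4 and 16.5 in HEK293T and 12.1 and 11.1 in HFF1. GAP43, a protein of growing axons, had 12.4, 13.9, 14.3 and 11.1, and GLRB, the beta subunit of the glycine receptor, had 15.9, 16.1, 11.8 and 12.2. MC4R, the melanocortin receptor of appetite control, had 14.7, 16.2, 12.7 and 12.3. TLE1, a corepressor of the Groucho family, had 10.5, 10.7, 13.1 and 12.97. The folds of the 12 adherent-only genes lay between 9.82 and 19.6.

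**Figure D3:**
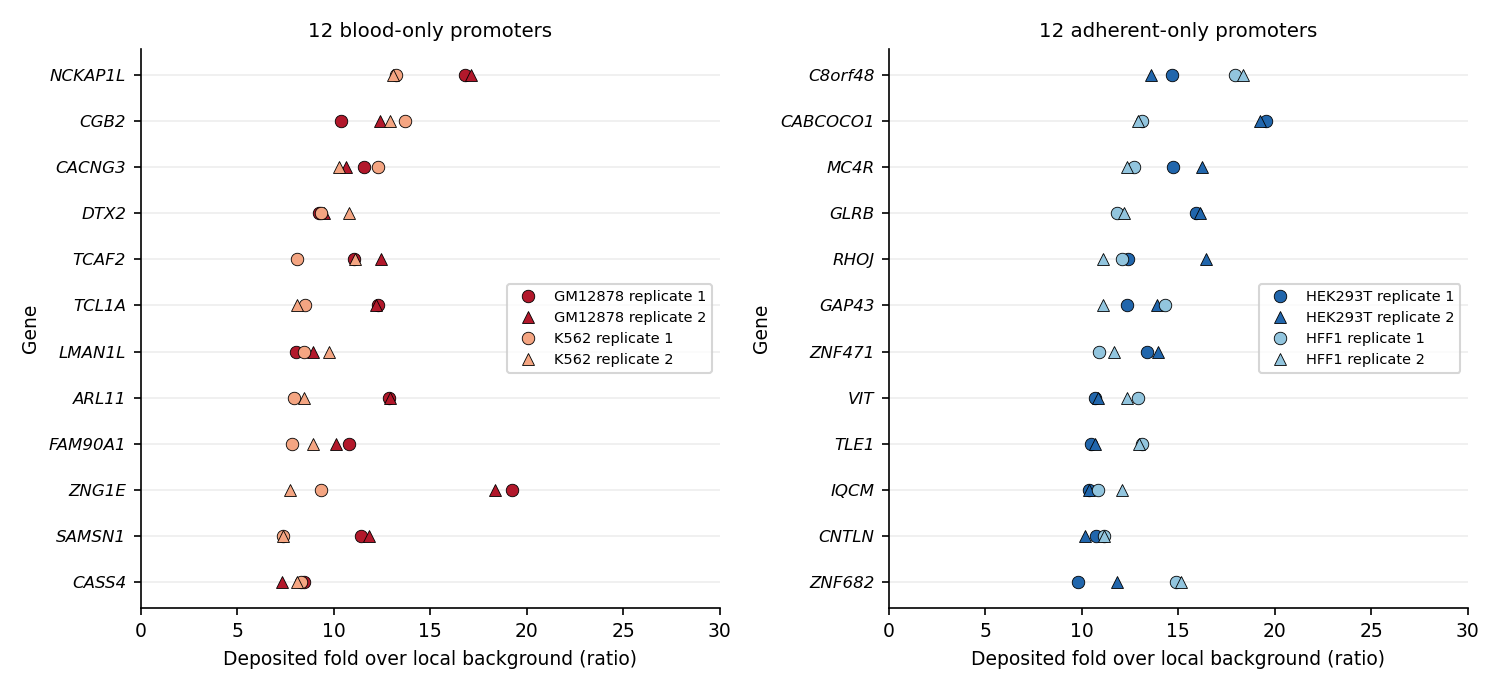
Deposited fold over local background (horizontal axis, ratio) in each library at the 12 highest blood-only (left) and 12 highest adherent-only promoters (right), circles for replicate 1 and triangles for replicate 2. NCKAP1L stands at 13.1 or higher in the 4 blood libraries, and replicates of a line lie close together for most genes.

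The full sets, the highest promoters included, ran down to lower folds. Over the 115 blood-only genes the fold ran from 2.38 to 19.2 in the 4 blood libraries, with medians from 6.09 to 6.27. Over the 222 adherent-only genes it ran from 4.01 to 20.0 in HEK293T, with medians of 8.80 and 8.67, and from 2.97 to 18.4 in HFF1, with medians of 6.30 and 6.27. The following genes were chosen after their values were seen. Blood-only promoters included further lymphocyte and myeloid genes: TNFRSF17 (the receptor BCMA), SLAMF6 and SLAMF7 (2 of 5 SLAMF genes), CD69 (an activation marker), PDCD1 (the receptor PD-1), IL2RB, ITGAX and PTPRCAP. They also included genes of other kinds, such as GRM7, MYH15, MUC4 and PON1. The share of blood cell genes among the 115 was not counted. SLAMF7 had folds of 10.2 and 11.4 in GM12878 and 4.97 and 5.56 in K562. IL2RB had 9.83 and 10.2 in GM12878 and 4.05 and 4.17 in K562. TNFRSF17 had 7.37, 8.35, 6.28 and 6.86.

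Adherent-only promoters included 6 of 39 HOX genes (HOXA4, HOXA5, HOXB13, HOXD3, HOXD11 and HOXD13) and 7 of 24 genes of the ADAMTS family of secreted proteases and related proteins, beside 1.16% of all genes. No gene of either family was blood-only. Of the other families counted, all chosen by symbol after values were seen, COL had 3 of 42, CDH 3 of 23, NKX 3 of 14, IRX 2 of 6, LAM 1 of 12 and ZNF 2 of 503, while SLAMF had 0 of 5 adherent-only and 2 blood-only. HOXA4 had folds of 7.97 and 9.01 in HEK293T and 10.98 and 13.1 in HFF1. ADAMTS15 had 16.3 and 15.7 in HEK293T and 9.68 and 9.56 in HFF1. ADAMTS5, an aggrecanase, had 7.85, 6.70, 4.98 and 4.96. MYOCD, a coactivator of serum response factor in smooth muscle, had 9.005, 8.41, 10.04 and 8.70.

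More genes had a single start site that met the rule than met it as a whole. A blood-only window lay at 878 start sites of 407 genes, and in 312 of these genes another start site had a peak in an adherent library, with 241 of them open in all 8 libraries at gene level. An adherent-only window lay at 1298 start sites of 459 genes, and 247 of these had a peak in a blood library at another start site. Among leukocyte genes, DOCK8, a guanine nucleotide exchange factor, had 7 of 20 start sites blood-only, with folds of 17.3 and 16.4 in GM12878 and 8.15 and 8.19 in K562 at a start 57.9 kb from one that was open in all 8 libraries. HCLS1, an actin-binding protein of leukocytes, had 8 of 9 start sites blood-only, and GMFG had 10 of 11. LCP1, LCP2, CD53, DOCK2, VAV1, PIK3CD, PIK3R5 and UCP2 also had such starts, making 11 of 45 leukocyte genes beyond the 4 above. On the adherent side, ERBB2 had 7 of 21 starts adherent-only with folds of 8.17, 9.90, 8.58 and 9.08, and TPM1, a tropomyosin, had 13 of 34. COL4A1 and COL4A2, the main collagens of basement membranes, share a promoter between them, which had folds of 8.68 and 7.42 in HEK293T and 5.38 and 5.71 in HFF1.

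Promoters of the sides differed in CpG content. A start site with an observed over expected CpG ratio above 0.6 was found in 11.3% of blood-only genes and 79.7% of adherent-only genes, beside 62.0% of all genes, 81.8% of genes open in all 8 libraries and 9.32% of genes with no peak. The median ratio was 0.335 and 0.745. Of genes open in HEK293T alone, 65.0% were CpG-rich, and of those open in HFF1 alone 26.2%. Sets of lines with both HEK293T and HFF1 lay at 68.2% or above, and sets without HEK293T at 48.0% or below. With HEK293T left out, 45.4% of the genes open in HFF1 and in neither blood line were CpG-rich. The blood-only share was 37.8% with the 40000 best peaks of each library, 39.2% without HFF1, 23.5% without HEK293T and 21.4% with the start site of the Ensembl canonical transcript alone. It was below the adherent-only share in each of these.

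Regions of the sides also differed in position. A promoter lay in 16.8% of blood-only regions and 31.0% of adherent-only regions, beside 14.0% of all regions and 54.0% of those open in all 8 libraries. Introns held 38.9% and 30.4%, exons 3.29% and 1.43%, and 41.1% and 37.3% lay between genes. The median width was 448 bp and 585 bp, beside 321 bp for all regions. Of 203375 distal regions, 2326 were blood-only (1.14%) and 1162 adherent-only (0.571%). Their median distance to a protein-coding start site was 16784 bp and 37820.5 bp, beside 25457 bp for all distal regions, and 9.93% and 29.3% lay over 100 kb away. The other sets of lines with HEK293T varied widely, with 47.3% over 100 kb for HEK293T alone and 58.1% for GM12878 with HEK293T, but 25.02% for K562 with HEK293T, 21.2% for GM12878, K562 and HEK293T, 28.7% for GM12878, HEK293T and HFF1, 15.6% for K562, HEK293T and HFF1 and 9.52% for all 4 lines. HFF1 alone had 22.6% and all distal regions 20.8%. At equal list length the shares were 8.35% and 23.7%.

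**Figure D4:**
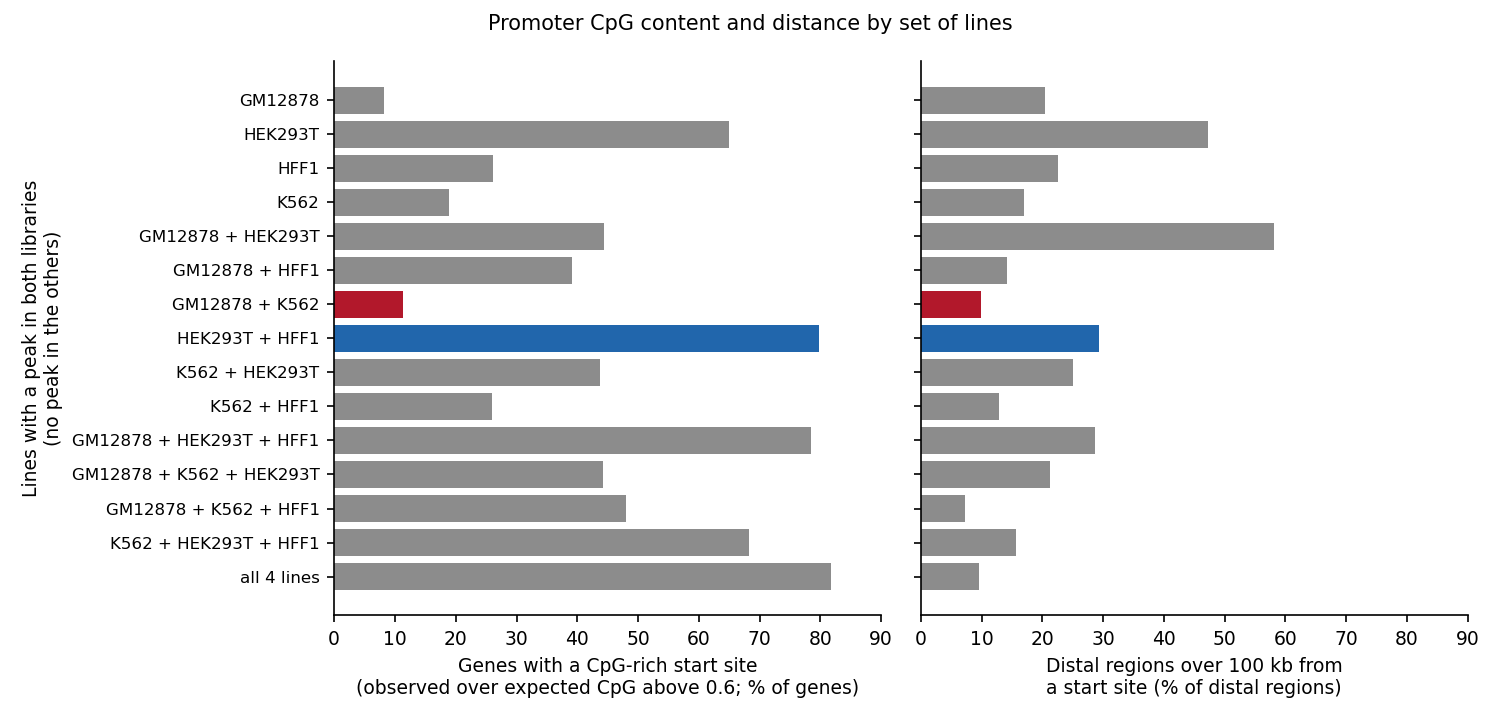
Share of genes with a CpG-rich start site (left) and of distal regions over 100 kb from a start site (right) for each set of lines that had a peak in both libraries while the others had none. The blood pair (red) is at 11.3% and 9.93% and the adherent pair (blue) at 79.7% and 29.3%, and GM12878 with HEK293T has the longest bar on the right (58.1%).

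Blood-only regions were most frequent on chromosomes 19, 22 and 16. On chromosome 19, 176 of 6548 regions were blood-only (2.69%) and 11 adherent-only (0.168%), on chromosome 22 the shares were 2.14% and 0.309%, and on chromosome 16 they were 1.73% and 0.370%. Adherent-only regions were the more frequent on chromosome 4, with 0.801% blood-only and 1.02% adherent-only, on chromosome 13, with 0.5996% and 0.863%, and on chromosome 21, with 0.965% and 1.32%, and the shares were equal on chromosome 15, at 0.965%. The shares are of the regions of that chromosome, and the genome-wide shares were 1.18% and 0.711%. Chromosome 19 was not particular to the blood side. It held 6.30% of blood-only and 0.654% of adherent-only regions, beside 2.77% of all. Of the regions of GM12878, K562 and HFF1 it held 8.78%, of K562 with HFF1 4.08% and of all 4 lines 5.22%. The share was 1.63% for HFF1 alone, 0.511% for HEK293T alone, 2.02% for K562 with HEK293T and 0.297% for GM12878 with HEK293T.

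Distal members lay near promoters of the same side more often than near other promoters. A blood-only distal region lay within 100 kb of 56 of the 115 genes with a blood-only promoter (48.7%), beside 27.4% of all genes, and an adherent-only one near 5 of them (4.35%, beside 7.40%). An adherent-only distal region lay near 50 of the 222 genes with an adherent-only promoter (22.5%), and a blood-only one near 18 (8.11%). In the lists, 20 of 45 leukocyte genes (44.4%) and 17 of 37 blood regulators (45.9%) had a blood-only distal region nearby. So had 6 of 16 erythroid markers (37.5%), but only 3 of 14 B-cell markers (21.4%), which is below the 27.4% of all genes. An adherent-only one lay near 11 of 23 Hippo genes (47.8%). For the integrin, matrix, junction, receptor and developmental lists that share ran from 9.52% to 31.1%, beside 7.40% of all genes. Of the 10 reference genes, which encode housekeeping proteins, 4 had a blood-only region nearby and 1 an adherent-only one.

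The strongest distal members were spread over the genome. The STARD4 region had folds of 15.8 and 18.1 in GM12878 and 15.3 and 15.0 in K562, and the CDKAL1 region 16.2, 15.1, 14.6 and 13.4. A region 5981 bp from ANKRD50 had 14.4, 17.1, 14.3 and 12.9, and others lay near VPS13B, CDH17 and PPP1R12B. On the adherent side a region 179271 bp from IL12B had 15.0 and 16.1 in HEK293T and 14.1 and 14.7 in HFF1. The TENM2 region had 15.3, 13.6, 13.9 and 14.3, and the PDE3A region, whose nearest gene also had an adherent-only promoter, 17.2, 13.3, 18.8 and 17.0. Others had PIK3C3 and CMPK2 as nearest genes. None of these 12 regions overlapped a peak of the other side.

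Few genes gathered several distal members. The 2326 blood-only distal regions had 1906 different nearest genes, 1583 of them with 1 region, and the 1162 adherent-only ones had 909, of which 739 had 1. The genes named next were picked for having the most members. Of all distal regions, 1.14% were blood-only and 0.571% adherent-only. GSE1 was nearest to 8 blood-only regions of its 123 distal regions, all in introns, between 3289 and 83706 bp from a start site. CBFA2T3, a corepressor of blood precursors, was nearest to 6 of 33, FNDC3B to 6 of 68 and ZFPM2 to 6 of 111. ADGRE5, the leukocyte adhesion receptor CD97, was nearest to 5 of 26, and VPREB1, a part of the surrogate light chain of B-cell precursors, to 5 of 35. On the adherent side TLE4, a Groucho corepressor, was nearest to 7 of 100 and ZNF608 to 6 of 147, and ADAMTS5, ETS1, MCTP2 and N6AMT1 to 5 each. The 6 genes of the blood side had 2 adherent-only regions between them, and those of the adherent side had 1 blood-only region. The promoters of GSE1, FNDC3B, ZFPM2, TLE4, ZNF608, ETS1 and N6AMT1 were open in all 8 libraries, and that of ADAMTS5 was adherent-only. Those of CBFA2T3 and ADGRE5 had peaks in 4 blood and 3 adherent libraries, and that of VPREB1 in 1 blood library alone. MCTP2 had promoter peaks in 2 blood and 4 adherent libraries. None of the blood-side genes thus had a blood-only promoter.

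Motifs were searched on both strands from 50 bp before to 50 bp after the median summit of the distal members, with each motif read backwards as a measure of the same letters without the site. The TEAD motif ACATTCC was found in 50 of 1162 adherent-only regions (4.30%) and 17 of 2326 blood-only regions (0.731%), beside 1.95% of all distal regions, and reversed in 0.861% and 0.817%. At the summits of single libraries, its share ran from 3.79% to 4.56% in the adherent libraries and from 0.430% to 0.817% in the blood libraries. The ranges did not overlap, but each library reads the same regions of its side at its own summits. These ranges show summit placement and are not a spread over replicates of a side. HFF1 alone had 4.02% and HEK293T alone 2.14%, so both adherent lines exceeded the 0.432% of GM12878 alone and 1.11% of K562 alone.

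The PU.1 motif GAGGAAGT was found in 4.30% of blood-only and 0.688% of adherent-only distal regions, beside 1.77% of all. The ETS motif ACAGGAAG, which shares the letters GGAAG with it, was found in 3.01% and 1.03%, beside 1.54% of all. Reversed shares were 0.172% and 1.38% for PU.1, above the motif itself in adherent-only regions, and 0.172% and 0.258% for ETS. The GATA motif AGATAAG was found in 4.04% and 1.38%, beside 2.15% of all, and the RUNX motif TGTGGTT in 5.12% and 2.93%, beside 4.48% of all, with reversed shares of 0.602% and 0.602% for GATA and 1.29% and 1.12% for RUNX. RUNX was also in 6.88% of the regions of GM12878 with HFF1 and 4.81% of those of HFF1 alone. PU.1 and GATA differed between the blood lines. Regions of GM12878 alone had PU.1 in 4.69% and GATA in 1.08%, and those of K562 alone had PU.1 in 1.19% and GATA in 11.9%. With GM12878 left out the regions of the blood side had PU.1 in 1.55% and GATA in 10.9%, and with K562 left out 4.68% and 1.27%. RUNX and GATA stood together in 11 of 2326 blood-only regions (0.473%), beside 0.0821% of all distal regions. When a whole line was left out, the order of the sides turned for GATA without K562 (1.27% blood, 1.85% adherent) and for RUNX without HEK293T (3.58% and 4.73%).

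The AP-1 motif TGACTCA did not separate the sides, with 11.1% of blood-only and 12.4% of adherent-only distal regions beside 11.7% of all. In the same adherent-only regions, AP-1 stood at 10.8% and 10.2% of HEK293T summits and 15.1% and 15.7% of HFF1 summits. The summits of the lines thus differed by more than those of their replicates did. The order of the sides turned without the line HFF1 (14.7% blood and 4.92% adherent) and without the line GM12878 (9.98% and 9.04%), and also without GM12878 replicate 1, HFF1 replicate 1 or HFF1 replicate 2. The E-box (CACCTG) replaced an earlier motif after the data were seen, so its rank is not that of a list fixed in advance. Of the 16 motifs, it gave the widest difference in percentage points, though not as a ratio. It was found in 13.2% of blood-only and 3.01% of adherent-only regions, beside 6.78% of all, with reversed shares of 3.96% and 3.27%. The E-box letters also occur within the CTCF motif, which was found in 4.21% and 1.81%. With every CAGGTG followed by GC left out, as the letters stand in that motif, the E-box shares were 11.4% and 2.58%. The E-box of the CMPK2 region shown above is of the kind left out. The share of the full E-box varied with the set of lines. HFF1 alone had 1.46%, K562 with HFF1 2.91% and GM12878 with HFF1 4.32%, while HEK293T alone had 8.39%, K562 with HEK293T 10.1% and GM12878 with HEK293T 12.1%. Regions open in all 8 libraries, HFF1 among them, had 13.6%. With HFF1 left out, the adherent-side share was 7.14%. At promoter members the E-box was in 19.4% of blood-only and 3.45% of adherent-only regions, and in the 250 bases before RefSeq starts in 29.8% of 104 and 15.5% of 233 promoters, beside 17.1% of all 20584.

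**Figure D5:**
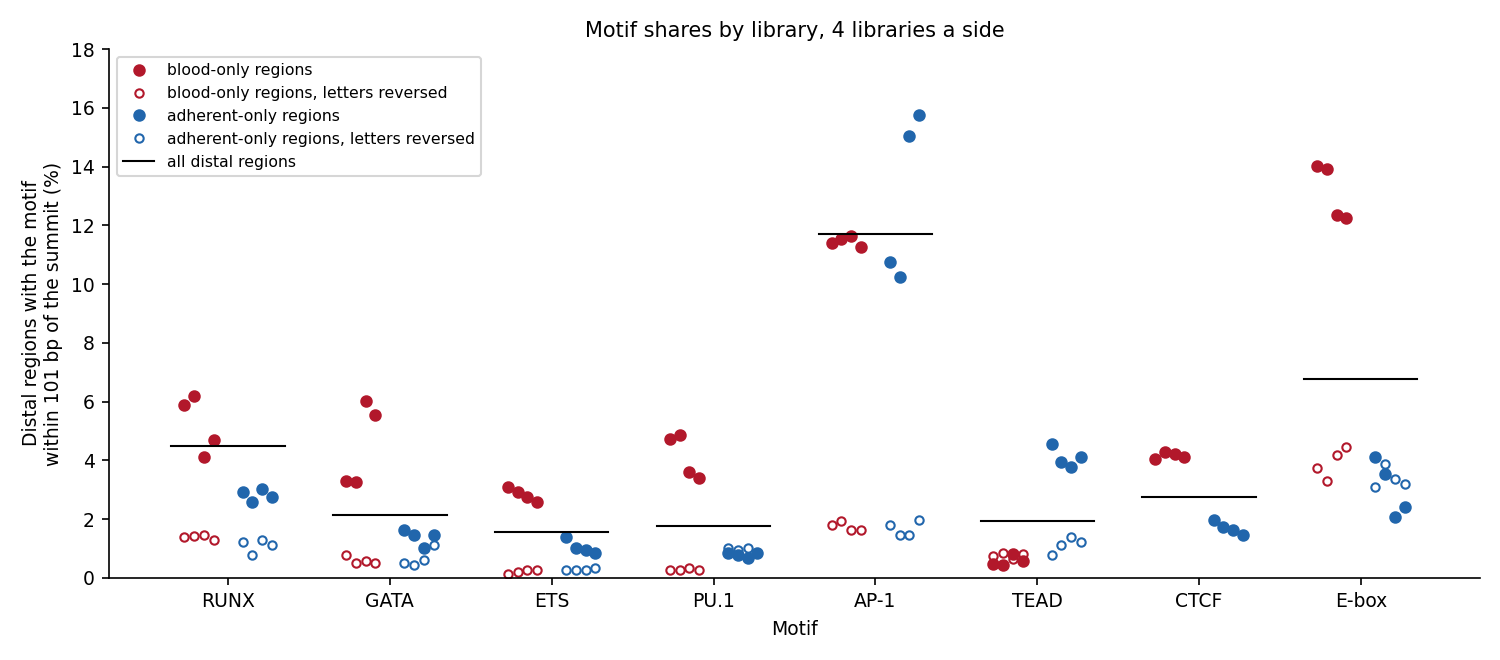
Share of distal members (vertical axis, %) with each motif from 50 bp before to 50 bp after the summit, a filled point for each library of the side, open points for the motif read backwards (none is drawn for CTCF) and a line for all distal regions. The points of a side are the same regions read at the summits of each library, so they are not replicates of a side. TEAD is higher in adherent-only regions (3.79% to 4.56%) than in blood-only regions, and PU.1, GATA and the E-box are higher in blood-only regions. The E-box was taken in after the data were seen. AP-1 differs more between HEK293T and HFF1 summits than between the sides.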

How the data were processed

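The data were 8 peak lists, 1 per library, from bulk ATAC-seq of 4 human lines with 2 replicates. Per the labels' protocols, nuclei were tagged with Tn5, about 20000 were sorted, and libraries went through 15 PCR cycles and a gel selection of 200 to 700 bp. The submitters' processing notes name cutadapt 3.2, Bowtie2 2.4.2, Picard and MACS2 2.2.7.1 and the build hg38, without roles; read shift, duplicate handling and the peak threshold are not given in the sources used here. The deposited columns are a fold (a ratio, on a linear scale, of summit to local background), a −log10 p-value and q-value, and a score. The deposited score is the −log10 q multiplied by 10, to within 1.

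Autosomal peaks were merged where they overlapped, and a peak counted for a region or promoter window from 1 bp of overlap. Start sites came from GENCODE v44 (141442 sites). Peaks lay at start sites in 20.2% to 34.9% of cases, against 7.89% to 9.50% at sites shifted by 100 kb. Depth was recovered by solving fold as (pileup + 1)/(background + 1) together with the Poisson tail, which succeeded for 100% of peaks within a tolerance of 0.05. The background level is in reads per window of the peak caller. A PCR read without a molecular identifier is not an independent molecule. RefSeq promoters matched 26 of 38 genes wanted.

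The members and the 11 gene lists were chosen with earlier results of these data known. Genes named are list members, the 12 promoters per side with the highest lowest fold and no window shared with another gene, the nearest genes of the 6 distal regions per side ranked likewise, and the 6 genes per side nearest to most distal members; others are marked as chosen after their values were seen, and a few genes are not reported here. The motif list was revised after seeing the data, and the E-box replaced an earlier entry. Alternatives were stricter peaks, equal list lengths, other windows and overlaps, and leaving out each library or line. The code was tested on simulated lists. Python 3.11.15, numpy 2.4.6, pandas 2.3.3 and scipy 1.17.1 were used.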

Additional observations from a re-analysis of the deposited data

Results flagged for a closer look

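Chromosome X was outside the comparison, so its members are a signal in data that the counts above do not use. Of 6573 merged regions on X, 74 were blood-only (1.13%) and 56 adherent-only (0.852%). Of 859 protein-coding genes on X, 4 had a blood-only promoter (0.466%) and 24 an adherent-only promoter (2.79%), beside 0.602% and 1.16% on the autosomes. The 4 were DGAT2L6, H2AL3, HEPH and ITM2A. The 24 included ANOS1, SHROOM2 and PCDH19. The lines can differ in the number and state of their X chromosomes, which was not tested.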

How the results depend on the processing

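No paired analysis was possible because the counts come from no test. Of 58 planned recounts of the 4 main numbers, 54 stayed within 1.5 times the reported count. The 4 that did not were the regions with the 40000 best peaks per library (1054 blood-only and 1006 adherent-only) and with peaks covering at least 50% of a region (1539 and 741). Leaving out 1 library gave 2976 to 3761 blood-only and 1773 to 2333 adherent-only regions, and 128 to 137 and 233 to 259 promoters. Leaving out a whole line, an alternative added after seeing the data, eases the rule and raises the counts by its construction. Without GM12878 there were 18540 and 3268 regions and 342 and 615 promoters, without K562 39093 and 3288 regions and 421 and 522 promoters, and without HEK293T 5708 and 53664 regions and 204 and 678 promoters. Without HFF1 there were 7213 and 6266 regions and 558 blood-only promoters, and 313 adherent-only promoters, which is within 1.5 times. Of 288 planned recounts of shares and list genes, 49 moved beyond the interval for counting error (95% Wilson) or 1.5 times, and in none of these 288 did the other side have the higher TEAD, PU.1, GATA, RUNX or E-box share. Each side rests on 2 lines, HEK293T libraries were shallow, and a missing peak is not evidence of closed chromatin at that depth.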

Other observations

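AP-1 shares differed widely between pairs of lines from opposite sides. Distal regions open in K562 and HFF1 alone had the AP-1 motif in 35.03%, those of GM12878 with HFF1 in 17.98% and those of HFF1 alone in 19.1%, beside 12.4% of adherent-only and 11.1% of blood-only regions. Pairs of a blood line with HEK293T had 3.96% (K562) and 2.91% (GM12878). CTCF was in 10.5% of the distal regions of GM12878 with HEK293T and in 19.7% of those open in all 8 libraries.

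Runs of regions missed by 1 blood line were examined for members. In the longest run of regions open in the other 3 lines but not in GM12878, on chromosome 4 from 186204099 to 189202560, GM12878 had 5 peaks, and 8 of 194 regions were adherent-only (4.12%, beside 0.711% of all regions) and 0 were blood-only. In the longest such run for K562, on chromosome 9 from 20940401 to 26656589, K562 had 0 peaks, and 2 of 215 regions were adherent-only (0.930%) and 0 blood-only. The runs were chosen for missing peaks of a blood line, which a blood-only region must have and an adherent-only region must lack. The 0 blood-only regions were thus fixed in advance for K562 and nearly so for GM12878. The choice also favours adherent-only regions, so their shares are not comparable with that of all regions. Copy number was not tested.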
